A study of Mus musculus with 4 samples.

Results

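Potassium channel subunits were followed in otocysts, the embryonic vesicles that form the inner ear. They were taken as all 95 gene names that begin with Kcn among the 31791 names of the array, and 137 probes carried these names. For the 34 names with several probes, the probe with the highest mean signal stood for the gene. The names run by subfamily letter from Kcna to Kcnv, and 1 of them, Kcnq1ot1, is a noncoding RNA and no channel subunit.

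RNA of mouse embryos of the NMRI strain at the stage E10.5 was hybridised to 4 Agilent arrays, each with 1 mutant and 1 control RNA in different dyes. The mutants, called Tbx2/3cDKO, carried Pax2-cre and were Tbx2(fl/fl) and also Tbx3(fl/fl), so that Cre recombinase driven by Pax2 sequences acts on the floxed alleles of the T-box transcription factors Tbx2 and Tbx3. The controls were Tbx2(fl/?);Tbx3(fl/?) without the Cre, and the question marks do not say whether the other copy was floxed. Replicates 1 and 2 were female and replicates 3 and 4 male, for mutant and control alike. The dyes of mutant and control were swapped on replicates 2 and 4. The labels do not say whether the 4 RNAs of a genotype came from separate litters or from pooled embryos, so p-values measure the spread between these samples alone. Pax2-cre is also active outside the otocyst, and cells in which it is not active keep both genes.

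Potassium channels let potassium ions leave or enter a cell and so set its resting voltage and end its action potentials. Most are built from pore-forming subunits, some of which are silent on their own and only modify others, together with accessory subunits that change how the pore opens. In the mature inner ear they are known for secreting potassium into the endolymph and for shaping the receptor potential of hair cells and the firing of the neurons of the cochlear and vestibular ganglia. At the otocyst stage those hair cells have not yet formed, while neuroblasts are leaving the epithelium.

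Each genotype was read on every array, and the log2 ratio of mutant over control was tested with limma over 18436 genes, with Benjamini-Hochberg adjustment and a threshold of 0.05. A gene was tested when its probe was well above background, by the scanner software's flag, on at least 3 of 4 arrays in either genotype. Between 57.4% and 62.2% of probes passed that flag in a mutant channel and between 57.8% and 60.4% in a control channel. The array ratios, turned to mutant over control, correlated across probes with r between 0.661 and 0.857. Tbx3 fell 10.8-fold in the mutant (log2 ratio -3.43 ± 0.16, SD, n = 4; limma adjusted p = 4.13e-06). For Tbx2 the log2 ratio was 0.06 ± 0.23 (SD, n = 4; limma adjusted p = 0.65), but the labels do not say whether its probe lies in the deleted sequence, so it does not check the deletion.

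The upstream sequences of the 5 Kcn genes with the largest ratios in either direction (Kcns3, Kcnc1, Kcnmb2, Kcnq5 and Kcnc2) are shown because both targeted genes encode T-box factors, which bind DNA through the half-site GTGTGA. The windows are from RefSeq (GRCm38.p6) and hold 250 bases before and 50 after an annotated start. They are printed in the direction of transcription, in lower case, with a half-site on either strand in capitals. Kcns3 has 2 annotated starts, and the window of 1 of them, chr12:11150793-11151092 on the minus strand, holds 1 half-site.
Kcns3: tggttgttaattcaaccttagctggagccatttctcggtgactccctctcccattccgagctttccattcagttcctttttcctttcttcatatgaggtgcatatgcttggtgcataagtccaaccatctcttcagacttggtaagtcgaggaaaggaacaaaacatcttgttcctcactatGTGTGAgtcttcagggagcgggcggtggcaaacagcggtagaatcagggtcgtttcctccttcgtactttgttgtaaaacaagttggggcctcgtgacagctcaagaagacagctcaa
Kcnc1 has 1 half-site in its window at chr7:46396218-46396517 on the plus strand.
Kcnc1: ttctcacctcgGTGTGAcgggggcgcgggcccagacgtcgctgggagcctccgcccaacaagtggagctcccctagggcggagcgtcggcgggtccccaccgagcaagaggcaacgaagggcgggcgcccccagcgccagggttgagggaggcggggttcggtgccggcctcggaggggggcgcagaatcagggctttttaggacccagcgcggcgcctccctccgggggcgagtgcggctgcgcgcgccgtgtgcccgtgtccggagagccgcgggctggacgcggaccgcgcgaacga
Kcnmb2 has none in its window at chr3:31902453-31902752 on the plus strand.
Kcnmb2: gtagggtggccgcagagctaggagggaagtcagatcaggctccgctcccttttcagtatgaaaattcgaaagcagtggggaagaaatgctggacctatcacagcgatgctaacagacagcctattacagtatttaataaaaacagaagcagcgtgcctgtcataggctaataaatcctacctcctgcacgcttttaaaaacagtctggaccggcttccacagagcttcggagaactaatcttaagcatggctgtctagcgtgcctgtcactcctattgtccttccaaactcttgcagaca
Kcnq5 has none in the window at chr1:21962601-21962900 on the minus strand, nor in its other window.
Kcnq5: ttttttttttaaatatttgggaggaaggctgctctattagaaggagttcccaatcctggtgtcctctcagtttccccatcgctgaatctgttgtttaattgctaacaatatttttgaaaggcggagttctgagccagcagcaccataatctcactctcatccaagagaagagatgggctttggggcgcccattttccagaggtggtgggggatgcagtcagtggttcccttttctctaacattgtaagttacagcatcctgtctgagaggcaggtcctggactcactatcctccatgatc
Kcnc2, whose ratio was opposite to that of Kcnc1, has none in the window at chr10:112269767-112270066 on the plus strand, nor in its other windows.
Kcnc2: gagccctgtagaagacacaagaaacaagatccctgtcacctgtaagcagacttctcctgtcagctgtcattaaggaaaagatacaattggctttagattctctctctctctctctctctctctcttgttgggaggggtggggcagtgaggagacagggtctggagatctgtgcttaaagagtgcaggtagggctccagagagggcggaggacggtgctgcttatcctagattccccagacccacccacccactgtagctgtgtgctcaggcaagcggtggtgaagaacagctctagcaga
Of the Kcn names, 70 had a window, and 18 of these had a half-site in at least 1 of their windows. Counted by window, the half-site was in 19 of 95 Kcn windows (20%), against 14.5% of all 32851 windows in the table. By outcome of the test below, it was found for 4 of 15 Kcn names that were higher in the mutant and 0 of 3 that were lower. It was found for 6 of 19 that did not pass the threshold and 8 of 33 that were too dim to test. These counts by name cannot be set against the share of all windows, because a name with several windows has more chances of a match. The longer site AGGTGTGA, which contains the half-site, was in 1.28% of all windows and in 1 of 95 Kcn windows (1.05%). A match is a stretch of letters and says nothing of binding.

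The Kcn names with the highest ratios of mutant over control were Kcns3, Kcnc1, Kcnmb2 and Kcnq5, and the lowest was that of Kcnc2. Of the 95 Kcn names, 43 were well above background on at least 3 arrays in mutant otocysts and 38 in control otocysts. Together 45 names could be tested (47.4%, against 58% of all names on the array), and 38 names were above background in no channel of any array. Of the 45 tested, 17 were higher in the mutant (37.8%, against 13.5% of all genes tested) and 4 were lower (8.89%, against 10.1%). The median log2 ratio over the tested Kcn names was 0.10, against 0.00351 over all genes tested. These counts are not independent of detection. A probe may enter the test through the genotype in which it is brighter. For 7 Kcn names at least 3 arrays were above background in the mutant alone (15.6%, against 2.29% of all genes tested) and for 2 in the control alone (4.44%, against 1.45%). When only probes above background in both channels of all 4 arrays were used, 32 Kcn names were left. Of these 32, 11 were higher and 2 lower. Among all genes tested under that filter, 12.8% were higher and 9.8% lower.

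**Figure D1:**
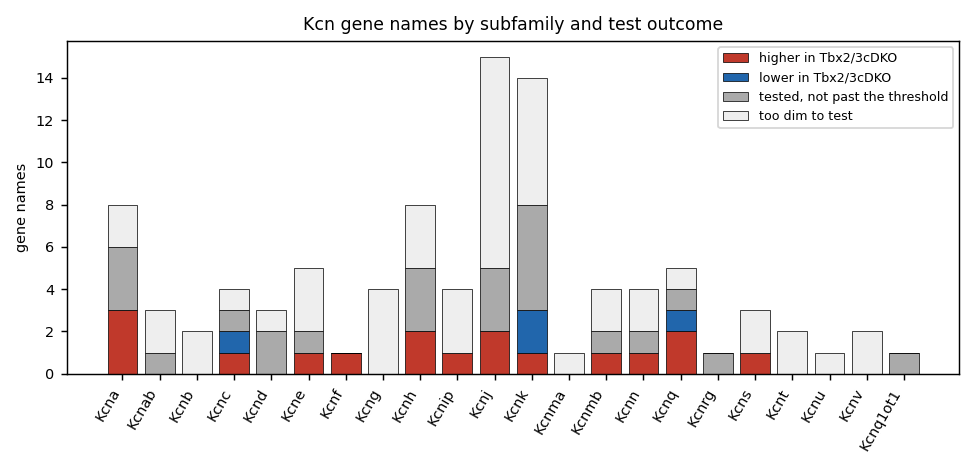
Number of Kcn gene names (vertical axis) in each subfamily (horizontal axis), split by whether the gene was higher or lower in Tbx2/3cDKO than in control otocysts at a limma adjusted p under 0.05, tested without passing, or too dim to test. The 45 tested names include 17 higher and 4 lower, and the Kcnj subfamily holds the most names, 15, of which 5 could be tested.

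The silent subunits, which form no channel alone and alter the Kcnb channels when joined to them, held Kcns3, which had the largest ratio of any Kcn name tested. Kcns3, measured by a probe at chr12:11097716-11097775 (mm9), had log2 levels of 8.83, 9.09, 8.97 and 9.10 in mutant replicates 1 to 4, against 6.95, 6.94, 6.88 and 6.94 in controls. Every mutant level lay above every control level, and the probe was above background on 4 mutant arrays and 1 control array. The gene was higher in the mutant (log2 ratio 2.07 ± 0.13, SD, n = 4; limma adjusted p = 7.32e-06), by a size that depends on the treatment of dim signals because 3 control arrays were not above background. Kcnf1, another silent subunit, had levels of 7.33, 7.47, 7.71 and 7.21 in mutants, against 6.76, 7.0, 7.21 and 6.71 in controls. The lowest mutant level and the highest control level nearly met, and on each array the mutant was higher by 0.47 to 0.56 (log2 ratio 0.51 ± 0.04, SD, n = 4; limma adjusted p = 0.000572). Kcnf1 was above background on 4 mutant arrays and 1 control array, so the size of its ratio has the same limit as that of Kcns3. Another probe of Kcnf1 was above background in no channel. The other silent subunits, of Kcng, Kcnv and the rest of Kcns, were too dim to test: Kcns1 was seen on 1 array in each genotype, and Kcns2, Kcng1, Kcng2, Kcng3, Kcng4, Kcnv1 and Kcnv2 on none. Kcnb2, a pore subunit that silent subunits join, was above background in no channel.

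The Kcnc pore subunits, which open at strongly depolarised voltages and let neurons fire quickly, changed in opposite directions. Kcnc1, at chr7:53688622-53688681 (mm9), had levels of 10.19, 10.30, 9.91 and 9.70 in mutants, against 8.39, 8.39, 8.32 and 8.43 in controls. The groups did not overlap, and Kcnc1 was 3.12-fold higher in the mutant (log2 ratio 1.64 ± 0.28, SD, n = 4; limma adjusted p = 0.000112). A second, dimmer probe of Kcnc1, above background on 3 mutant arrays and 0 control arrays, was also higher in the mutant (limma adjusted p over all kept probes = 0.00307). The mean ratio of both kept probes was 1.09, but that of the second is set against a control channel not above background. Kcnc2, at chr10:111902778-111902837 (mm9), had levels of 6.80, 6.63, 6.74 and 6.90 in mutants, against 8.02, 8.0, 8.02 and 8.10 in controls. Every mutant level was below every control level, and the probe was above background on 1 mutant array and 4 control arrays. Kcnc2 was lower in the mutant (log2 ratio -1.27 ± 0.07, SD, n = 4; limma adjusted p = 2.73e-05), with the same limit on the size. Kcnc4 had a log2 ratio of -0.10 and did not pass the test.

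Among the Kcnq subunits, Kcnq3 and Kcnq5, which carry the slow M-current that damps neuronal firing, also diverged. Kcnq5, at chr1:21389067-21389126 (mm9), had levels of 8.16, 8.22, 8.24 and 8.15 in mutants, against 7.12, 6.94, 7.13 and 7.04 in controls. The groups did not overlap, and Kcnq5 was 2.2-fold higher in the mutant (log2 ratio 1.14 ± 0.10, SD, n = 4; limma adjusted p = 4.05e-05). Another probe of Kcnq5 was above background in no channel, so the change was read on 1 probe. Kcnq3, at chr15:65826897-65826956 (mm9), had levels of 6.83, 6.83, 6.79 and 6.97 in mutants, against 7.42, 7.42, 7.36 and 7.33 in controls. Here too the groups did not overlap, and Kcnq3 was 1.44-fold lower in the mutant (log2 ratio -0.53 ± 0.12, SD, n = 4; limma adjusted p = 0.00105). Kcnq3 was above background on 1 mutant array and 4 control arrays, and Kcnq5 on 4 mutant and 3 control arrays. The size of both ratios depends on the treatment of dim signals.

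**Figure D2:**
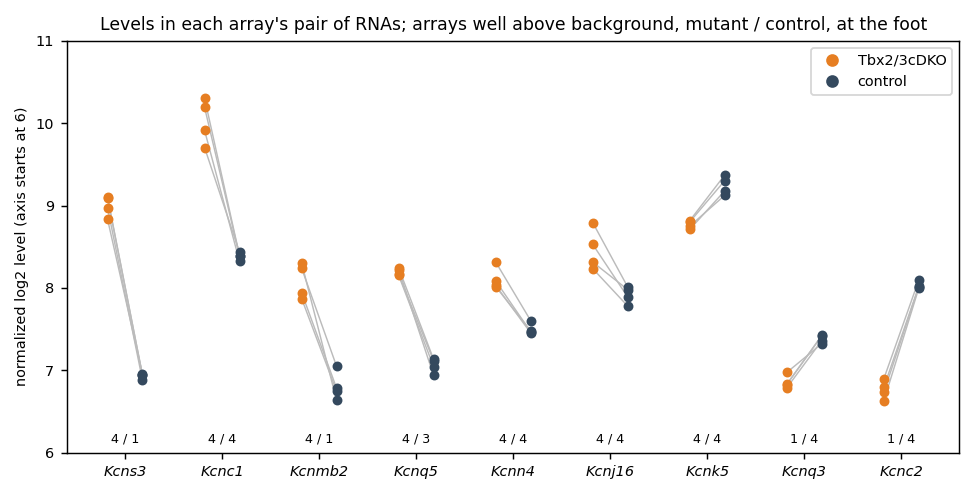
Normalised log2 level (vertical axis, starting at 6) of 9 Kcn genes in Tbx2/3cDKO and control otocysts, with a line joining the 2 RNAs of each array and the number of arrays above background at the foot as mutant / control. Levels of Kcns3 were between 8.83 and 9.10 in mutants and between 6.88 and 6.95 in controls, while those of Kcnc2 were between 6.63 and 6.90 in mutants and between 8.0 and 8.10 in controls. Levels of different genes come from different probes and are not to be set against each other.

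The Kcna subunits form delayed and A-type channels of axons and other cells, and 3 of 6 tested were higher in the mutant. Kcna6 had levels of 10.29, 10.26, 10.37 and 10.15 in mutants, against 9.78, 9.72, 9.79 and 9.78 in controls. Mutant and control levels did not overlap (log2 ratio 0.50 ± 0.09, SD, n = 4; limma adjusted p = 0.000943). Its other kept probes had log2 ratios of 0.12 and 0.09 and did not pass (limma adjusted p over all kept probes = 0.152 and 0.292), and the mean of all its kept probes was 0.24. Kcna2 averaged 7.46 ± 0.08 in mutants and 7.18 ± 0.12 in controls (SD, n = 4 each), with ratios of 0.31, 0.41, 0.20 and 0.19 on the 4 arrays (limma adjusted p = 0.0146). Kcna3, a channel also known from lymphocytes, averaged 7.95 ± 0.14 in mutants and 7.70 ± 0.06 in controls (SD, n = 4 each; limma adjusted p = 0.0283). The call of Kcna2 was lost without replicate 1 or 3 (limma adjusted p = 0.0939 and 0.0576). That of Kcna3 was lost without replicate 1 or 2 (limma adjusted p = 0.168 and 0.072) and in the scanner software's log ratios (0.0503). Kcna4, Kcna5 and Kcna7 had log2 ratios between 0.03 and 0.06 and did not pass. Kcna1 was seen in no channel.

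The Kcnh subunits, relatives of the ether-a-go-go channel of the fruit fly, had 2 of 5 tested names higher in the mutant. Kcnh8 had levels of 8.38, 8.34, 8.56 and 8.55 in mutants, against 7.86, 8.0, 8.03 and 7.86 in controls. The groups did not overlap (log2 ratio 0.51 ± 0.14, SD, n = 4; limma adjusted p = 0.00217), and a second probe of Kcnh8 had a ratio of 0.46. Kcnh1 had levels of 7.19, 7.12, 7.03 and 7.19 in mutants, against 6.76, 6.64, 6.70 and 6.80 in controls, without overlap. Kcnh1 was above background on 4 mutant arrays and 0 control arrays, so it entered the test through the mutant alone. Its ratio was a bound, at least 1.27-fold higher in the mutant. The call (limma adjusted p = 0.00177) is no separate support for that bound. Kcnh2, the subunit of the rapid repolarising current of the heart, and Kcnh3 and Kcnh4 had log2 ratios between -0.04 and 0.10 and did not pass. Kcnh5, Kcnh6 and Kcnh7 were seen in no channel. Of the Kcnd subunits, which carry A-type current, Kcnd1 and Kcnd3 had ratios of 0.01 and 0.15 and did not pass, and Kcnd2 was seen on 1 array in each genotype.

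The inward rectifiers pass potassium into the cell more readily than out, and 2 of 5 tested were higher in the mutant. Kcnj16, which joins Kcnj10 in kidney and brain, had levels of 8.23, 8.31, 8.53 and 8.79 in mutants, against 7.78, 7.98, 7.89 and 8.01 in controls. All mutants were above all controls (log2 ratio 0.55 ± 0.20, SD, n = 4; limma adjusted p = 0.00361). Kcnj12, a strong rectifier, had levels of 7.07, 7.13, 7.01 and 7.12 in mutants, against 6.68, 6.85, 6.68 and 6.59 in controls, again without overlap. Kcnj12 was above background on 4 mutant arrays and 0 control arrays, so it entered the test through the mutant alone. As a bound, it was at least 1.24-fold higher in the mutant. Its call (limma adjusted p = 0.00424) is no separate support for that bound. Kcnj15 and Kcnj4 were above background on 3 mutant arrays, against 1 and 2 control arrays, but neither passed the test (log2 ratios 0.14 and -0.09; limma adjusted p = 0.0967 and 0.313). Kcnj14 had a ratio of 0.10 and did not pass. The remaining names were too dim to test: Kcnj5 was seen on 2 mutant arrays and 0 control arrays, and 8 others, Kcnj1, Kcnj2, Kcnj3, Kcnj6, Kcnj8, Kcnj9, Kcnj11 and Kcnj13, were seen in no channel.

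The two-pore subunits carry background leak current, and of 8 tested 1 was higher and 2 were lower in the mutant. Kcnk5, a leak channel opened by alkaline medium, had levels of 8.82, 8.80, 8.71 and 8.75 in mutants, against 9.37, 9.30, 9.18 and 9.12 in controls. All mutants were below all controls (log2 ratio -0.47 ± 0.08, SD, n = 4; limma adjusted p = 0.00101). Kcnk1 had levels of 11.70, 11.61, 11.81 and 11.90 in mutants, against 12.02, 12.00, 11.93 and 12.03 in controls. Its groups did not overlap either (log2 ratio -0.24 ± 0.13, SD, n = 4; limma adjusted p = 0.0385), but the call was lost without replicate 1, 2 or 3 (limma adjusted p = 0.199, 0.113 and 0.076), in the scanner software's log ratios (0.0589), in the series table (0.0582) and under median centring (0.0983). Kcnk6, a relative of Kcnk1, averaged 8.43 ± 0.07 in mutants and 8.06 ± 0.09 in controls (SD, n = 4 each; log2 ratio 0.37; limma adjusted p = 0.0029). Kcnk10 and Kcnk16 lay just outside the threshold with log2 ratios of -0.31 and -0.18 (limma adjusted p = 0.0553 and 0.0504). Kcnk2, Kcnk4 and Kcnk13 had ratios between -0.07 and 0.11 and did not pass. The other two-pore names were too dim: Kcnk9 was seen on 1 mutant array and 0 control arrays, Kcnk15 on 0 mutant arrays and 1 control array, and Kcnk3, Kcnk7, Kcnk12 and Kcnk18 on none.

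Among channels opened by calcium and their partners, Kcnmb2 and Kcnn4 were higher in the mutant. Kcnmb2, an accessory subunit that makes the large-conductance calcium-activated channel inactivate, had levels of 7.87, 7.94, 8.24 and 8.30 in mutants, against 6.75, 6.78, 7.05 and 6.64 in controls. The groups did not overlap, and Kcnmb2 was higher in the mutant (log2 ratio 1.28 ± 0.26, SD, n = 4; limma adjusted p = 0.000132). Its probe, at chr3:32098621-32098680 (mm9), was above background on 4 mutant arrays and 1 control array, so the size of that ratio also depends on the treatment of dim signals. Another probe of Kcnmb2 was above background on 1 mutant array and 0 control arrays and was not kept. The pore subunit that Kcnmb2 joins, Kcnma1, was above background on no array with any of its 3 probes. Kcnmb4 had a ratio of 0.15 and did not pass, and Kcnmb1 and Kcnmb3 were seen in no channel. Kcnn4, the calcium-activated channel of red blood cells and lymphocytes, had levels of 8.31, 8.02, 8.03 and 8.09 in mutants, against 7.6, 7.48, 7.46 and 7.47 in controls. No mutant level reached down to a control level (log2 ratio 0.61 ± 0.07, SD, n = 4; limma adjusted p = 0.000371). The related Kcnn1 and Kcnn3 were seen in no channel, nor was Kcnu1, which is not opened by calcium. Of the sodium-activated Kcnt subunits, Kcnt1 was seen in no channel and Kcnt2 on 1 array in each genotype.

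Of the remaining accessory subunits, Kcne1l, a single-span partner of Kcnq pores, averaged 8.99 ± 0.21 in mutants and 8.66 ± 0.16 in controls (SD, n = 4 each). Its levels overlapped between the genotypes, while the ratio was between 0.28 and 0.45 on every array (log2 ratio 0.34; limma adjusted p = 0.00462), and a second probe had a ratio of 0.16 (limma adjusted p over all kept probes = 0.0682). Kcnip3, a calcium-binding partner of Kcnd channels, averaged 8.95 ± 0.14 in mutants and 8.74 ± 0.11 in controls (SD, n = 4 each; log2 ratio 0.20; limma adjusted p = 0.0254). That call was lost without replicate 1, 2 or 3 (limma adjusted p = 0.147, 0.0718 and 0.107) and under median centring in place of loess (0.0788). Another probe of Kcnip3 was above background on 0 mutant arrays and 1 control array and was not kept. Kcnab1, Kcne3 and Kcnrg, an inhibitor of the assembly of voltage-gated channels, had log2 ratios of 0.21, -0.11 and 0.01 and did not pass. Kcnab3 was seen on 2 mutant arrays and 1 control array, and Kcnab2, Kcne2, Kcne4, Kcnip1, Kcnip2 and Kcnip4 on none.

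**Figure D3:**
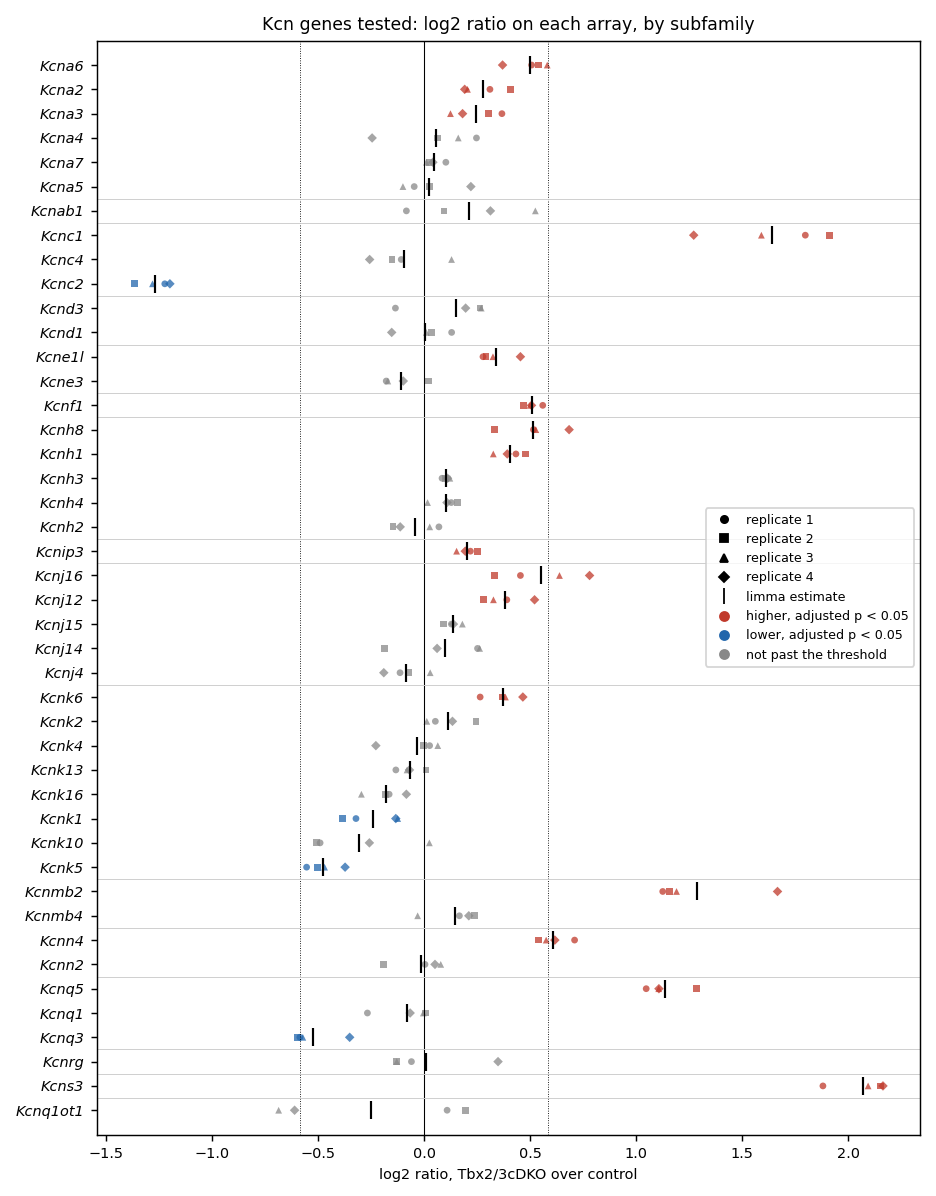
Log2 ratio of Tbx2/3cDKO over control otocysts (horizontal axis) for 44 of the 45 tested Kcn names (rows, grouped by subfamily), with a point for each of 4 arrays and a bar at the limma estimate. Dotted lines mark 1.5-fold. Kcns3, Kcnc1, Kcnmb2 and Kcnq5 lie above the upper line on every array, and Kcnc2 below the lower one.

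Measured without any model of the spread, 4 Kcn names (Kcns3, Kcnc1, Kcnmb2 and Kcnq5) were at least 1.5-fold higher in the mutant on every array, where 1.95% of all genes tested were. Kcnc2 alone was at least 1.5-fold lower on every array, where 1.14% of all genes were. The sign was the same on every array for 21 Kcn names that were higher in the mutant (21.6% of all genes tested) and 5 that were lower (19.9%). Of the 5 names with at least 1.5-fold on every array, Kcns3 and Kcnmb2 were tested through the mutant alone and Kcnc2 through the control alone. With probes above background in both channels of all 4 arrays the counts at that size were 1 higher and 0 lower, and with the scanner software's log ratios 8 higher and 2 lower. An offset of 50 added to each background-corrected signal draws dim ratios towards 0. In the scanner software's log ratios, which have no such offset and another background correction and normalisation, the log2 ratio was 3.33 for Kcns3, 2.26 for Kcnmb2, 1.99 for Kcnq5 and -2.56 for Kcnc2. By the same measure it was 1.34 for Kcnf1, 0.97 for Kcnn4, 0.51 for Kcna2 and -1.42 for Kcnq3. Kcnh1 and Kcnj12, given as bounds above, had 1.24 and 1.18 there, against control channels not above background. All of these genes kept their direction and passed the test there.

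Among Kcn genes known from the mature ear, Kcnj16 (above) was higher in the mutant, Kcnq1 and Kcnn2 did not pass the test, and Kcne1, Kcnj10, Kcnma1 and Kcna10 were too dim to test. Kcnq1, the pore through which the stria vascularis and vestibular dark cells secrete potassium, had levels of 7.74, 7.91, 7.79 and 7.81 in mutants, against 8.01, 7.90, 7.79 and 7.87 in controls. The log2 ratio of Kcnq1 was -0.08 (95% confidence interval -0.23 to 0.06; limma adjusted p = 0.392). Kcnn2, the calcium-activated channel beneath the efferent synapse of hair cells, had a log2 ratio of -0.01 (95% confidence interval -0.16 to 0.13; limma adjusted p = 0.891). Kcne1, the partner of Kcnq1 in potassium secretion, and Kcnma1, the large-conductance channel of hair cells, were above background in no channel. Kcnj10, which generates the endocochlear potential, was seen on 1 mutant array and 2 control arrays, and Kcna10, a hair cell channel, on 1 array in each genotype. The signal of these genes was too close to background to compare the genotypes.

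The noncoding Kcnq1ot1 lies antisense within Kcnq1 and silences neighbouring genes on the paternal chromosome. On its brightest probe it had ratios of opposite sign in females and males. Its log2 ratios were 0.11 and 0.20 in the female replicates 1 and 2, and -0.69 and -0.61 in the male replicates 3 and 4. The males lay below the females, and the male minus female difference was -0.80 (limma interaction, adjusted p = 0.0853), which did not pass. The genotype effect over all 4 arrays was -0.25 ± 0.46 (SD, n = 4; limma adjusted p = 0.336). A second probe gave the same -0.25 with less spread between arrays (limma adjusted p over all kept probes = 0.0478). The difference between sexes was read on the brightest probe alone. Of all Kcn names, 0 passed the limma interaction test for sex after adjustment and 7 had an unadjusted p under 0.05, where 2 genes (0.0108%) passed and 2864 had such a p among all genes tested. Each sex had 2 pairs.

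Of 24 proteins that work with potassium channels but carry other names, 18 were tested, of which 3 were higher and 1 lower in the mutant, where 13.5% and 10.1% of all genes tested were, and the median log2 ratio was 0.06. Amigo1, a partner of Kcnb channels, had a ratio of 0.62 ± 0.05 (SD, n = 4; limma adjusted p = 0.000264), Abcc9, the sulfonylurea receptor of ATP-sensitive channels, one of 0.37 ± 0.12 (limma adjusted p = 0.00275), and Lgi1, a secreted partner of Kcna channels, one of 0.41 ± 0.16 (limma adjusted p = 0.00734). Cntnap2, which clusters Kcna channels along axons, was lower at -0.48 ± 0.17 (SD, n = 4; limma adjusted p = 0.0016). Of 40 sodium and calcium channel names, 23 were tested, of which 3 were higher (Cacna2d1 at 0.92, Scn4b at 0.39 and Cacnb1 at 0.26) and 4 were lower (Cacna2d3 at -0.65, Cacna1d at -0.34 and Cacna1a at -0.27 among them), with a median of 0.03 and beside the same shares of all genes. The call was lost for Cacnb1 without replicate 1 or 3 (limma adjusted p = 0.118 and 0.0502), for Cacna1d without replicate 1 (0.051) and for Cacna1a without replicate 3 (0.119). Of 10 genes for potassium uptake and chloride transport in the ear, 9 were tested. Of these 2 were higher and 2 lower, where 13.5% and 10.1% of all genes tested were.

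Markers of several cell types moved with the genotype. The counts below stand beside 13.5% higher and 10.1% lower among all genes tested. In RNA of a whole dissected tissue, fewer cells of a type and less RNA per cell cannot be told apart. Of 14 tested markers of neuroblasts and early neurons, 11 were higher in the mutant and 0 lower (median log2 ratio 0.88), with a summed log2 level of 15.22 to 15.45 in mutants and 14.67 to 14.82 in controls. Of 14 markers of otic epithelium, 1 was higher and 11 were lower (median -0.49), with a summed level of 16.96 to 17.16 in mutants and 17.89 to 18.05 in controls. Red blood cell markers were higher for 10 of 10 (median 1.12; summed level 20.02 to 20.13 in mutants, 18.44 to 19.09 in controls), and so were endothelial markers for 10 of 10 (median 0.66; 14.60 to 14.72 in mutants, 14.06 to 14.21 in controls). Markers of periotic mesenchyme were higher for 8 of 10 (median 0.41; 17.04 to 17.12 in mutants, 16.49 to 16.72 in controls) and those of macrophages for 7 of 8 tested (median 0.45; 12.13 to 12.67 in mutants, 11.82 to 12.02 in controls). Hindbrain markers had 1 higher and 1 lower of 5 tested, with Hoxb1, Egr2, Pax6, Olig2 and Pax7 too dim to test (12.08 to 12.27 in mutants, 11.98 to 12.21 in controls). Heart and skeletal muscle markers had 1 higher and 1 lower of 5 tested (10.72 to 11.02 in mutants, 9.93 to 10.05 in controls), and those of melanoblasts and neural crest glia 3 higher and 2 lower of 6 (12.75 to 12.89 in mutants, 13.03 to 13.13 in controls). A summed level is weighted towards the brightest genes of its list. In the muscle sum, Actc1 was at 10.04 to 10.47 in mutants and 8.46 to 8.66 in controls. In the otic epithelium sum, Oc90 was at 14.54 to 15.17 in mutants and 16.71 to 16.88 in controls. The Kcn names were not sorted by the cell types that use them, so the marker counts cannot be matched to single Kcn genes. The part of these cell types in the Kcn ratios was not tested.

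**Figure D4:**
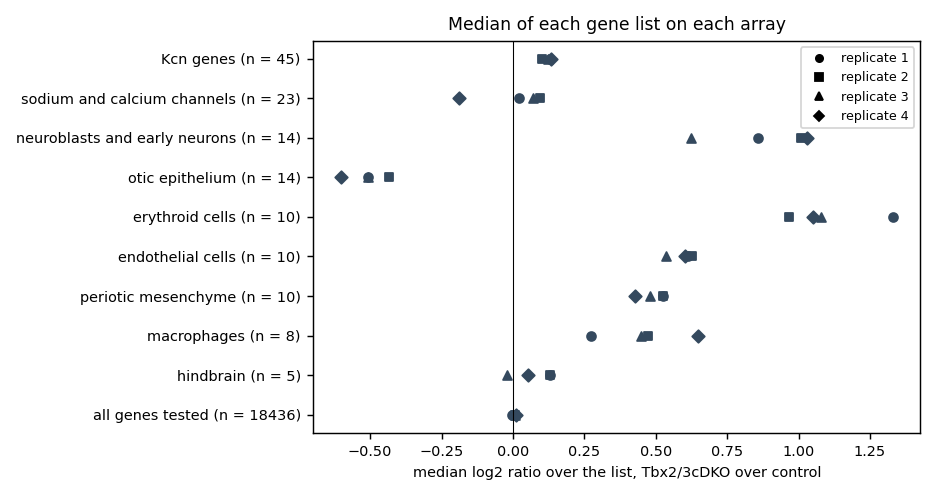
Median log2 ratio of Tbx2/3cDKO over control otocysts (horizontal axis) of each gene list (rows, with the number of genes tested), with a point for each of 4 arrays. The Kcn median was between 0.10 and 0.13 on every array, that of neuroblast and neuron markers 0.62 to 1.03, and that of otic epithelium markers -0.60 to -0.43.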

How the data were processed

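Spot and local background intensities of 4 arrays with both colours came from Agilent Feature Extraction, version 10.7.3.1 (per the file headers). The log10 ratios and the 0 or 1 flags (other) come from the same software, per the file headers. The table for the whole series, as deposited, has a signed fold ratio per probe. As log2 values, 90.8% to 93.3% of them lay within 0.001 of the scanner's log ratio, turned to mutant over control by the dye labels; the median of each column was 1, and the treatment of the rest was not stated in the labels.

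Mean intensities were corrected by normexp (offset 50) and loess within arrays (control spots at weight 0) in limma 3.58.1, R 4.3.3, with statmod 1.5.0 and data.table in version 1.17.8; of each array 21 to 32 spots with uneven signal were dropped, and 0 spots were saturated. Levels are channel values after loess and Aquantile. Probes well above background on 3 of 4 arrays in either genotype were kept (23202 of 39429), and the brightest probe stood for a gene. Genotype, by dye orientation, and dye were fitted with lmFit and eBayes (residual degrees of freedom 2, prior 4.61). A bound sets the bright genotype's mean against the dim one's or the lowest detected signal, whichever is higher. Names were matched to RefSeq (GRCm38.p6) for 127 Kcn probes by accession and 10 by symbol; probe coordinates are the files' (mm9).

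Kcn names past the threshold, those detected in 1 genotype alone, ear genes and Kcnq1ot1 were described singly and the others by range; from the partner and the sodium and calcium lists, up to 3 members per direction. Results for some Kcn names are not reported here. Members and lists were chosen with earlier results of these data known. Simulated data for the comparison of mutant over control covered 18435 genes. Of genes changed 1.5-fold 89 of 100 were recovered, and of those changed 2-fold 98 of 100. Among 202 calls 15 were unchanged genes. Changed genes were drawn from brighter probes alone, so recovery of genes as dim as many of the Kcn names was not measured. Another offset, normalization, filter, probe rule or model, other values and each replicate left out were tried. Figures used Python 3.11.15, matplotlib 3.10.9 and pandas 2.3.3.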

Additional observations from a re-analysis of the deposited data

Results flagged for a closer look

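In 3 Kcn genes replicate 4, a male pair with mutant RNA in AlexaFluor555, stood apart from the other arrays of the group of 4. Its log2 ratio of mutant over control was 1.67 for Kcnmb2, -0.351 for Kcnq3 and 0.349 for Kcnrg. Without replicate 4 the ratio was 1.16 for Kcnmb2, -0.59 for Kcnq3 and -0.11 for Kcnrg. Chance alone marks about 1 in 20 groups in this way, and 45 Kcn genes were looked at.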

How the results depend on the processing

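Under 16 alternatives, 16 of the 21 called Kcn genes kept their call wherever they were tested, 5 lost it in at least 1 (Kcna2, Kcna3, Kcnip3 and Kcnk1 among them), 7 uncalled genes gained one in at least 1, and 0 reversed. With probes above background in both channels of all 4 arrays, which tests fewer genes, 11 Kcn genes were higher and 2 lower, with 1 at least 1.5-fold higher and 0 at least 1.5-fold lower on every array. With the scanner software's log ratios and with the series table alike, 8 were at least 1.5-fold higher and 2 lower on every array; these change the background correction, the normalization and the offset together, while an offset of 10 alone gave 6 and 1, and the cause was not tested. Leaving out 1 replicate gave 14 to 17 higher and 3 to 5 lower. Kcnq1ot1 was called without replicate 2 (log2 ratio -0.45, limma adjusted p = 0.0392). Under median centring in place of loess, 1 Kcn gene, Kcnq1ot1, differed between sexes; the cause was not tested. Each ratio already pairs 1 mutant with 1 control RNA on an array, so no further block was fitted. For the Kcn names not tested the signal was too close to background to compare the genotypes.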
